A study of Macaca mulatta with 27 samples.

Results

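The transcription factors ZIC2, TBXT (older symbol T) and NEUROG2 are 3 of the 14132 genes with a named probe set on the rhesus array. Each was measured by 1 of the 52707 probe sets left after controls. They were taken by gene symbol: MmugDNA.2029.1.S1_at for ZIC2, MmuSTS.4686.1.S1_at for TBXT and MmugDNA.8756.1.S1_at for NEUROG2. The 3 were set side by side because the ZIC2 probe set was bright and called present on every array, while the probe sets of TBXT and NEUROG2 were called absent. Those levels and calls are therefore a description, and the tests concern differences among lines, families and sexes.

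ZIC2 is a zinc finger factor of the ZIC family that patterns the dorsal neural tube and forebrain, and in mouse it also acts at enhancers of pluripotent cells. TBXT, or Brachyury, is the T-box factor that marks the primitive streak, nascent mesoderm and notochord, and it is switched on by WNT, nodal and FGF signals. NEUROG2, or neurogenin 2, is a basic helix-loop-helix (bHLH) factor that pairs with E proteins to drive neural progenitors into neurons, and HES and ID proteins hold such factors in check.

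Each of the 27 samples came from 1 of 10 embryonic stem cell lines of the rhesus macaque, which are pluripotent cultures grown from the inner cell mass of blastocysts. All lines were kept on mitomycin-treated mouse embryonic fibroblast feeders in medium with FGF2, activin A and LIF, and RNA came from scraped colonies. Lines 106, 206 and 306 had sire M106 and dam F244 (the triplet), and lines 2706, 2906, 3006 and 3106 had sire M106 and dam F88 (the quadruplet). Lines 2406 (M106 and F77), 3806 (M106 and F32) and 906 (M36 and F183) had no full sibling. Lines 106, 306, 906, 2706 and 3106 were male, and 206, 2406, 2906, 3006 and 3806 were female. Line 2906 had 1 array, line 206 had 2 and each other line had 3, named here by line and letter. Whether the arrays of a line were separate cultures is not stated in the labels, so a p-value among lines rests on a spread that may be technical alone.

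Values are the deposited array signals, already scaled to a common trimmed mean, and levels are given as log2(signal + 16). A detection call compares the matched and mismatched probes of 1 probe set and says present, marginal or absent. Probe sets differ in how well they bind, so signals of different genes are not read here as amounts of RNA. Each gene is counted by its brightest probe set unless another is named. In these bulk samples, fewer cells expressing a gene and less RNA in each cell cannot be told apart. The median signal of an array ran from 94.1 to 159.7 and was highest on 106c, 206c, 306c and 906c. Degraded RNA raises the signal of the 3' GAPDH control over that of the 5' control, and this GAPDH ratio was over 3 on 6 arrays (106c, 2406d, 2406e, 2906d, 3006a and 3006c) and reached 13.3 on the single array of line 2906.

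The pluripotent identity given by the labels was checked first. POU5F1, the core pluripotency factor, was present on 27 of 27 arrays at 14.38 ± 0.14 (log2 signal, SD over 10 lines), SOX2, its partner, at 13.99 ± 0.24 and DNMT3B, a de novo DNA methyltransferase of the primed state, at 13.65 ± 0.22. Of 12 measured primed pluripotency genes, 11 were present on all 27 arrays, and NANOG was present on 26. Among 9 naive pluripotency genes, 3 were present on all arrays (KLF4, NR5A2 and PRDM14), and 4 were present on 0 (KLF2, KLF17, DPPA5 and DNMT3L).

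ZIC2 was called present on 27 of 27 arrays, TBXT on 0 and NEUROG2 on 0, and none of the 3 had a marginal call. Over all 52707 probe sets, 28.7% were present on every array and 37.6% on none. Counted by the brightest probe set of each of 14132 genes, the shares were 49.0% and 22.9%. Both outcomes were thus common on this array.

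**Figure D1:**
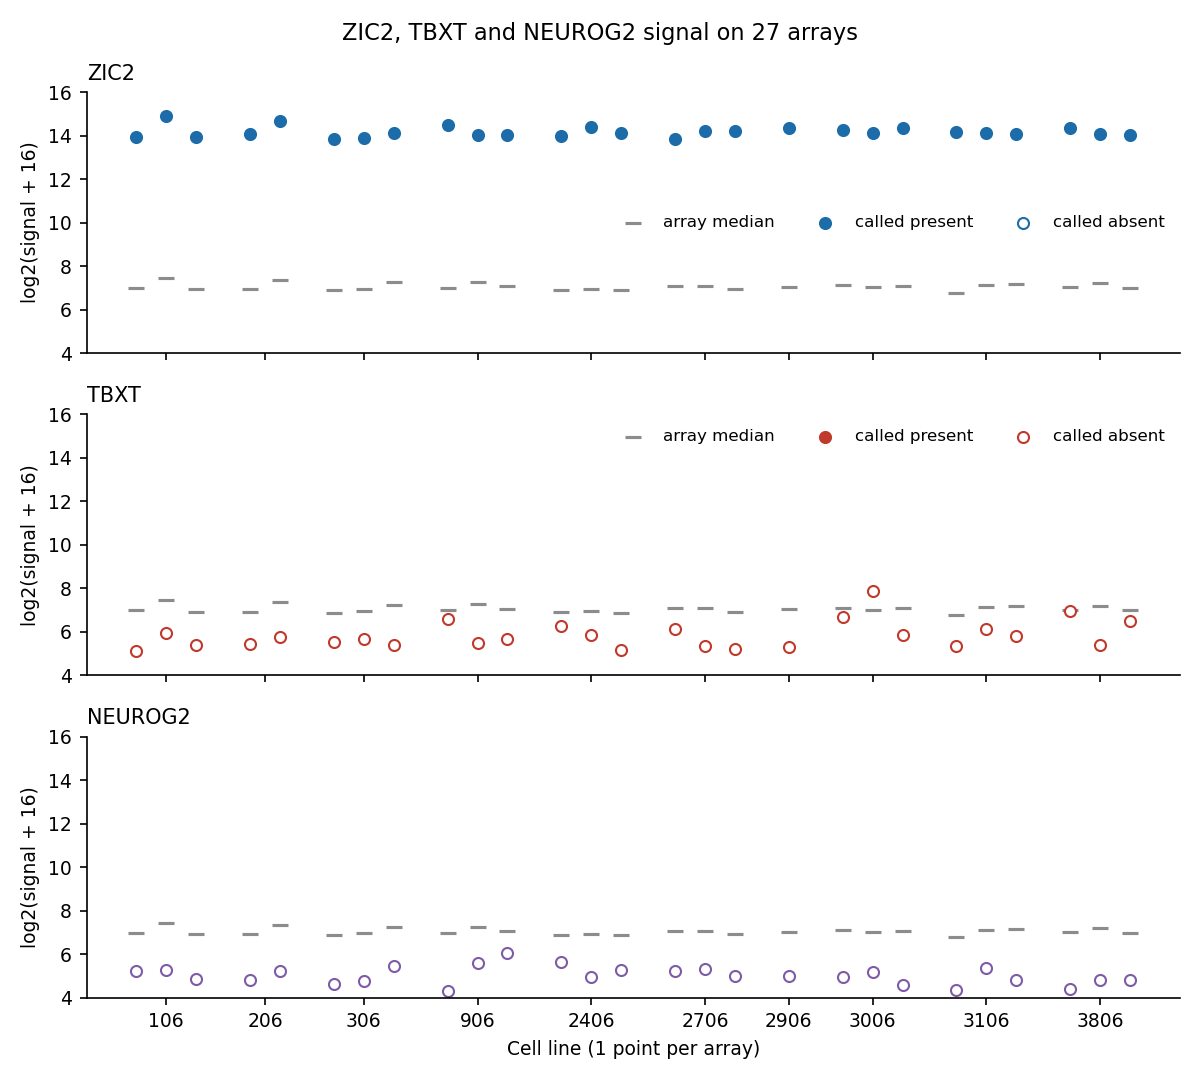
Level of ZIC2, TBXT and NEUROG2 as log2(signal + 16) on each array, with arrays grouped by cell line along the horizontal axis. Filled circles were called present, open circles absent, and grey dashes mark the array median. ZIC2 lies far above the median on every array, and TBXT passes the median on 3006b alone.

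ZIC2 signal was high in every line. Line 106 gave 15575, 30888 and 15736 on arrays a, c and d, and line 206 gave 17421 and 26182 on a and c. Line 306 gave 14809.9, 15070 and 17911 on a, b and c, and line 906 gave 22824, 16579 and 16814 on a, c and d. The 2 highest signals of the series were those of 106c and 206c, each well above the other arrays of the same line. Line 2406 gave 16065, 21152 and 17862 on a, d and e, line 2706 gave 14754, 19030.4 and 18744 on a, b and c, and the single array of line 2906 gave 21043. Line 3006 gave 19478, 17774 and 20526 on a, b and c, line 3106 gave 18097, 17493 and 17273, and line 3806 gave 20774, 17318 and 16445. The signals of the lines overlapped, and array 906a came next after them.

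On each array only 162 to 359 probe sets were brighter than that of ZIC2 (median 263), which put it between the 99.3 and the 99.7 percentile. All probe sets within 10% of its signal were called present on all 27 arrays. Its signal was 121 to 204 times the array median.

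The mean of the 10 line means of ZIC2 was 14.19 ± 0.13 (log2 signal, SD). Line 206 stood highest at 14.38 ± 0.42 (n = 2), followed by 2906 at 14.36 (n = 1), 106 at 14.26 ± 0.57, 3006 at 14.23 ± 0.10 and 906 at 14.18 ± 0.26 (n = 3 each). The order went on with 2406 at 14.16 ± 0.20, 3806 at 14.14 ± 0.18, 3106 at 14.11 ± 0.03, 2706 at 14.09 ± 0.21 and 306 at 13.96 ± 0.15. No step between neighbours in this order exceeded the larger SD of the pair. The whole range was 0.43, against an SD of 0.27 between arrays of a line, and the estimated share of variance between lines was 0%. Without array 206a the range was 0.72, line 206 then resting on 206c.

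ZIC2 was not called as different among lines by limma's F test on the 27 arrays (adjusted p = 0.910), where 16.6% of 32856 tested probe sets and 17.4% of 11299 tested genes were called. Its range of line means was narrower than that of all but 6.81% of the probe sets present on every array, while its spread between arrays of a line was at the 51.6 percentile of the same probe sets. ZIC2 thus sat low among these probe sets in its range between lines and in the middle in its spread within them. The probe sets compared were of all signal levels. Its spread within lines was largest in lines 106 (SD 0.57) and 206 (0.42), against 0.26 or less in the other lines with more than 1 array.

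ZIC2 was not called between families or between sexes. The 4 quadruplet lines averaged 14.20 ± 0.13 and the 3 triplet lines 14.20 ± 0.22 (SD over lines). The limma difference was -0.0035 ± 0.17 (SE, 95% interval -0.39 to 0.38, adjusted p = 0.995), where 0.0761% of probe sets and 0.0708% of genes were called. An exact 2-sided permutation test over the lines gave p = 0.971, and 35 regroupings allow no p below 0.0286. Its sign turned under median centring (0.05) and without the 4 arrays of highest median (0.23), among others, and no setting tried called it.

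The 5 male lines averaged 14.12 ± 0.11 and the 5 female lines 14.26 ± 0.11. Male levels ran from 13.96 to 14.26 and female levels from 14.14 to 14.38, so the groups overlapped. The difference of -0.14 ± 0.12 (95% interval -0.39 to 0.12) was not called by limma (adjusted p = 0.812), where 0.0578% of probe sets and 0.00885% of genes were. The exact 2-sided permutation p over 252 regroupings was 0.0952.

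The high ZIC2 signal of 106c came with a high signal of other abundant transcripts. On this array ZIC2 was 0.98 above the mean of 106a and 106d (log2), POU5F1 was also 0.98 above, and the 3' GAPDH control was 1.16 above. SOX2 was instead lower by 0.95 there, at 7264 against 13559 and 14569, and the DNMT3B difference was -0.36. On 206c ZIC2 was 0.59 above 206a, POU5F1 0.31 and GAPDH 0.22 above. On 306c ZIC2 was 0.26 above the mean of 306a and 306b, POU5F1 0.05 and GAPDH 0.22 above. On 906c, a further array of high median, ZIC2 was not raised, with a difference of -0.24. Array 106c had both the highest median and a GAPDH ratio of 4.61, and the part of either in its ZIC2 signal was not tested.

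**Figure D2:**
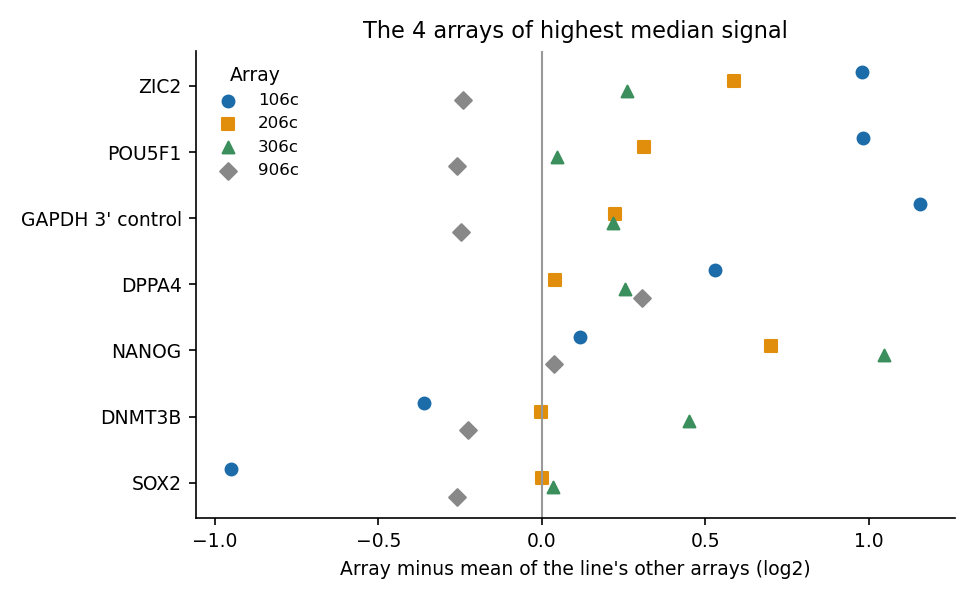
Difference in log2(signal + 16) between each of the 4 arrays of highest median and the mean of the other arrays of its line, for ZIC2, 5 pluripotency genes and the 3' GAPDH control. On 106c ZIC2, POU5F1 and GAPDH were higher by 0.98 to 1.16 while SOX2 lay at -0.95.

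The genes whose line means followed ZIC2 most closely were found among 6925 other genes present on all arrays. SPRY2, an inhibitor of FGF receptor signalling, had the highest Pearson r over the 10 line means at 0.886 (0.849 without line 2906). SUCO followed at 0.825, NCKIPSD at 0.813, KLHDC10 at 0.806, TPRA1 at 0.804 and PDLIM4, a LIM domain protein of the actin cytoskeleton, at 0.803. Without line 2906 these 5 lay between 0.756 and 0.798. Among core genes, r was 0.687 for DPPA4 and 0.644 for POU5F1 but 0.054 for SOX2 and 0.027 for DNMT3B. Without line 2906 these were 0.75, 0.561, -0.099 and 0.231, so that DPPA4 came close to the lowest of the 6. Array 106c enters all these values of r. There ZIC2, POU5F1 and DPPA4 were 0.98, 0.98 and 0.53 above the mean of 106a and 106d. The SOX2 and DNMT3B differences on it were -0.95 and -0.36. The part of 106c in these values of r was not tested. The line means of ZIC2 and of these genes share the arrays. Those of ZIC2 spanned only 0.43, and its estimated share of variance between lines was 0%. Any r may thus reflect the spread between arrays and not shifts of lines. The 6 closest were the top of a ranking of 6925 genes over 10 points, and r was not tested. None of the 6 closest genes was called among lines by limma (adjusted p from 0.196 to 0.919).

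Of the 5 ZIC family genes, 3 were measured, and the RefSeq gene table used here lists ZIC5 as the protein-coding gene next to ZIC2. ZIC5, a close relative of ZIC2, was present on 27 of 27 arrays at 7.95 ± 0.31 (log2 signal, SD over 10 lines). It ran from 154.4 on 906d to 566.1 on 106c, the array on which ZIC2 was also brightest. ZIC4, a factor of cerebellar development, was present on 0 arrays, with signals from 11.5 to 109.9. Neither ZIC2 nor ZIC5 was called among lines (limma, adjusted p = 0.222 for ZIC5), and neither had an unadjusted p under 0.05.

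TBXT stayed low and was called absent on every array. Line 106 gave 18.7, 45.8 and 26.5 on a, c and d, line 206 gave 28 and 38 on a and c, and line 306 gave 29.9, 35.6 and 26.8 on a, b and c. Line 2406 gave 60.5, 41.9 and 20.1 on a, d and e, line 2706 gave 54.8, 24.5 and 21.2 on a, b and c, and line 2906 gave 23.7. Those lines held no TBXT signal above 60.5. Line 906 gave 82.2, 28.4 and 34.9 on a, c and d, line 3106 gave 24.7, 55.2 and 40.4 on a, b and c, and line 3806 gave 106.8, 26.2 and 73.3. Line 3006 gave 86.5, 220.5 and 42.6 on a, b and c. The highest TBXT signal of the series, 220.5 on 3006b, stood apart from the next, 106.8 on 3806a.

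Only 3006b exceeded its own array median, at 1.94 times. There TBXT ranked at the 64.9 percentile, and 56.8% of the probe sets within 10% of its signal were called present, yet TBXT was not. On the 27 arrays together its median percentile was 23.0, and the share of like-bright probe sets called present had a median of 5.02%. TBX22, a T-box factor of palate development, shows that calls do not follow signal alone, since it was present on 22 arrays, at signals from 36 to 116.0.

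**Figure D3:**
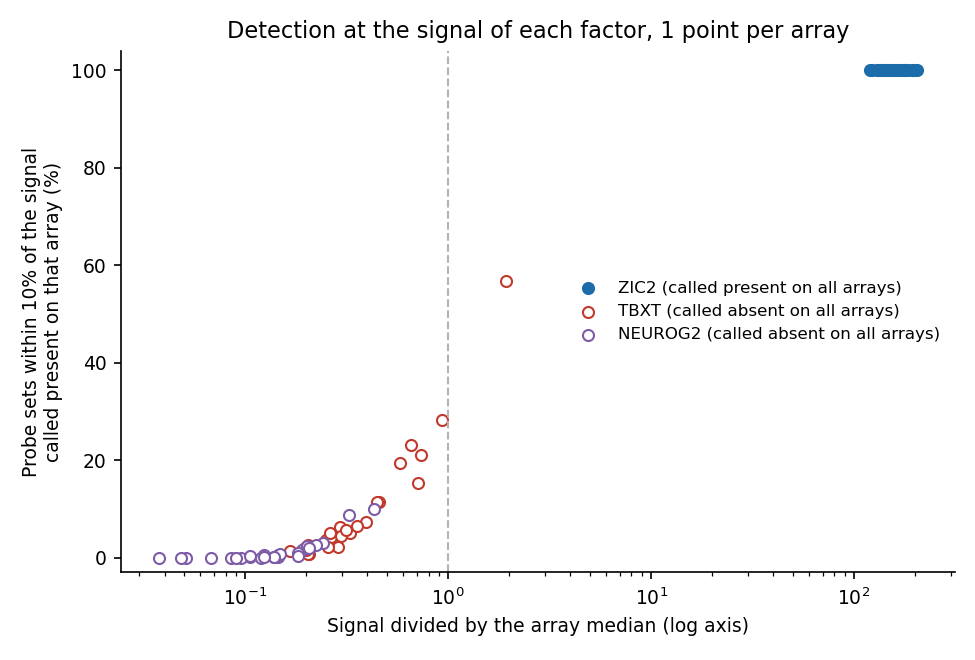
Share of probe sets within 10% of the signal of ZIC2, TBXT or NEUROG2 that were called present, against that signal divided by the array median (log axis), 1 point per gene and array. ZIC2 lies at 100% throughout, NEUROG2 at 10.1% or less, and the TBXT point of 3006b at 56.8% and 1.94 times the median.

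By line, TBXT averaged 5.81 ± 0.44 (log2 signal, SD over 10 line means). Line 3006 was highest at 6.81 ± 1.01, followed by 3806 at 6.27 ± 0.79, 906 at 5.92 ± 0.61, 3106 at 5.77 ± 0.41 and 2406 at 5.76 ± 0.55 (n = 3 each). Below them came 206 at 5.61 ± 0.21 (n = 2), 2706 at 5.57 ± 0.50, 306 at 5.54 ± 0.14, 106 at 5.49 ± 0.42 and 2906 at 5.31 (n = 1). No neighbours in this order differed by more than the larger SD of the pair. The place of line 3006 rested on 3006b, without which its mean was 6.28, next to 6.27 for line 3806, and the range of line means was 0.97 instead of 1.5.

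The TBXT probe set exceeded its array median on 1 array and so did not enter the test. In the fit without that filter it was not called among lines (limma, adjusted p = 0.409). The quadruplet lines were at 5.87 ± 0.66 and the triplet lines at 5.55 ± 0.06, a difference of 0.32 ± 0.33 (SE, adjusted p = 0.797). The male lines were at 5.66 ± 0.18 and the female lines at 5.95 ± 0.59, a difference of -0.29 ± 0.25 (adjusted p = 0.875). Every TBXT value behind these tests came from an array with an absent call.

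TBXT was 1 of the T-box genes present on no array. Of 15 measured T-box genes, 2 were present on all arrays, 6 on some and 7 on none. MGA, a large factor with both a T-box and a bHLH domain, was present on 27 arrays at 10.51 ± 0.29, and TBR1, a factor of cortical neurons, was present on 27 by 1 probe set (12.27 ± 0.16) but on 2 by the other (6.45), so that TBR1 is uncertain. TBX2, TBX4, TBX5, TBX10, TBX18 and TBX20, factors of limb, heart, face and other organs, were present on 0 arrays like TBXT.

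EOMES, the T-box factor that acts beside TBXT in the streak and in definitive endoderm, was present on 20 arrays. It differed among lines (8.42 ± 0.68, adjusted p = 0.029), from 7.38 in line 106 to 9.56 in line 2706. Its second probe set was present on 27 arrays and also differed (adjusted p = 0.046). On 2406e EOMES reached 1408, the highest of the series, while TBXT on that array was 20.1. Of 7 tested T-box genes, EOMES and MGA (adjusted p = 0.044) differed among lines, which is 2 against 17.4% of all genes. Without line 106 EOMES was not called (0.076), and MGA was not called without line 2906 (0.17), line 3006 (0.12) or the 6 arrays of high GAPDH ratio (0.20). The share of all tested genes called also moved with the arrays kept. It was 13.2% without line 2906, 9.98% without line 3006, 8.23% without the arrays of high GAPDH ratio and 21.4% without line 106. Calls were thus lost widely over all genes in each of these settings but the last. The same shares apply to every loss named below in these settings. Leaving out the arrays of high GAPDH ratio removes line 2906 and leaves only 2406a in line 2406 and only 3006b in line 3006. Such a loss is thus not read as a trait of the gene named. The second probe set of MGA, present on 13 arrays, was not called (0.675).

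**Figure D4:**
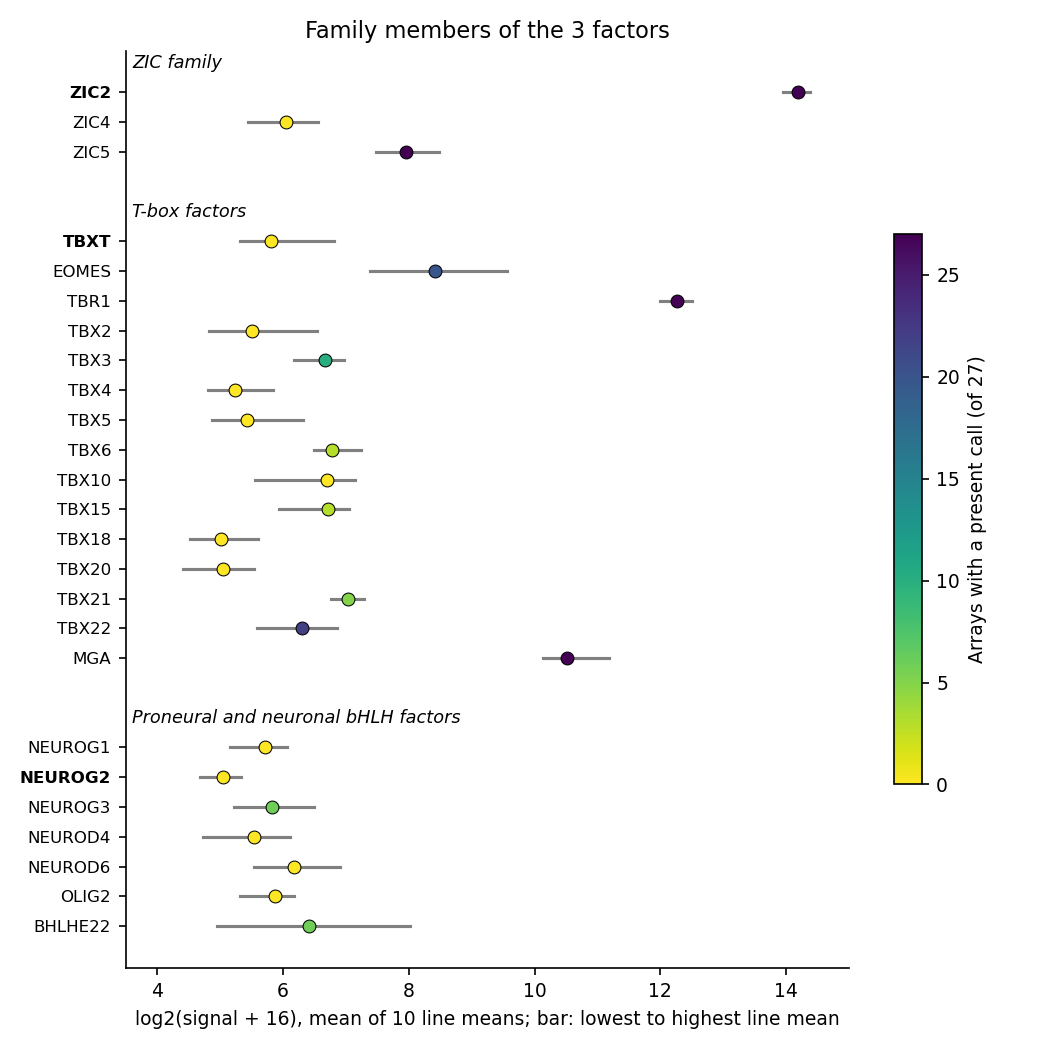
Mean of the 10 line means of log2(signal + 16) for the measured ZIC, T-box and neuronal bHLH genes, with a bar from the lowest to the highest line mean and a colour for the number of arrays called present. ZIC2, ZIC5, TBR1 and MGA were present on all 27 arrays, and TBXT and NEUROG2 lie among genes present on none.

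Genes of the pathways that induce TBXT were detected in the same bulk samples. Of 13 measured WNT, FGF and nodal genes, 6 were present on all arrays, 6 on some and 1, the receptor FGFR1, on none by its brightest probe set, though its other probe set was on 24. The WNT receptor FZD7 was at 12.40 ± 0.64, the transcriptional repressor TCF7L1 at 11.99 ± 0.22, the growth factor FGF2 at 10.49 ± 0.23 and the ligand NODAL at 10.20 ± 0.55, each on 27 arrays. The feedback inhibitor of WNT signalling AXIN2 was present on 25 arrays, and SP5, a direct WNT target, on 2.

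In this list 7 of 13 tested genes differed among lines, against 17.4% of all genes. They were WNT3, WNT8A, DKK1, SP5, NODAL, BMP4 and FGF4 (adjusted p from 0.000264 to 0.046). WNT3, the ligand that starts the streak in mouse, ran from 6.29 in line 106 to 9.14 in line 3006. NODAL ran from 9.56 in line 3806 to 11.15 in line 3006. DKK1, a secreted WNT inhibitor, SP5, BMP4 and FGF4 were highest in line 2906, which is 1 array with a GAPDH ratio of 13.3. Without that line 6 of the 13 were called, BMP4 being lost (0.088), and 5 were called when the 6 arrays of high GAPDH ratio were left out, SP5 (0.064) and BMP4 (0.15) being lost. The shares of all genes called in these settings were 13.2% and 8.23%. WNT3 was not called without line 3006 (0.094). Second probe sets of WNT3 (0.148) and NODAL (0.406), each present on 25 arrays, were not called.

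Line 3006 was highest for WNT3, NODAL and SNAI1, while TBXT was called absent on its 3 arrays. On 3006a, b and c WNT3 gave 480.2, 1008 and 339.1. By its second probe set it gave 289.4, 264.5 and 220.0 there. NODAL gave 2458, 2760.0 and 1704 on these arrays, and 2406a was higher still at 3160 (TBXT there 60.5). SNAI1, the repressor of E-cadherin in cells that leave the epiblast, gave 696.1, 757.8 and 583.9, each above every array of the other lines, whose highest was 580.4 on 2406a. GSC, the organiser factor goosecoid, and MIXL1, a homeobox gene of the streak, were not highest in line 3006. GSC gave 413.3 and MIXL1 104.1 on 3006b, against 2942 for GSC on 2406e and 474.8 for MIXL1 on 2406a. Arrays 3006a and 3006c had GAPDH ratios of 6.15 and 3.41 and 3006b had 2.98, and the part of RNA quality in these values was not tested.

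**Figure D5:**
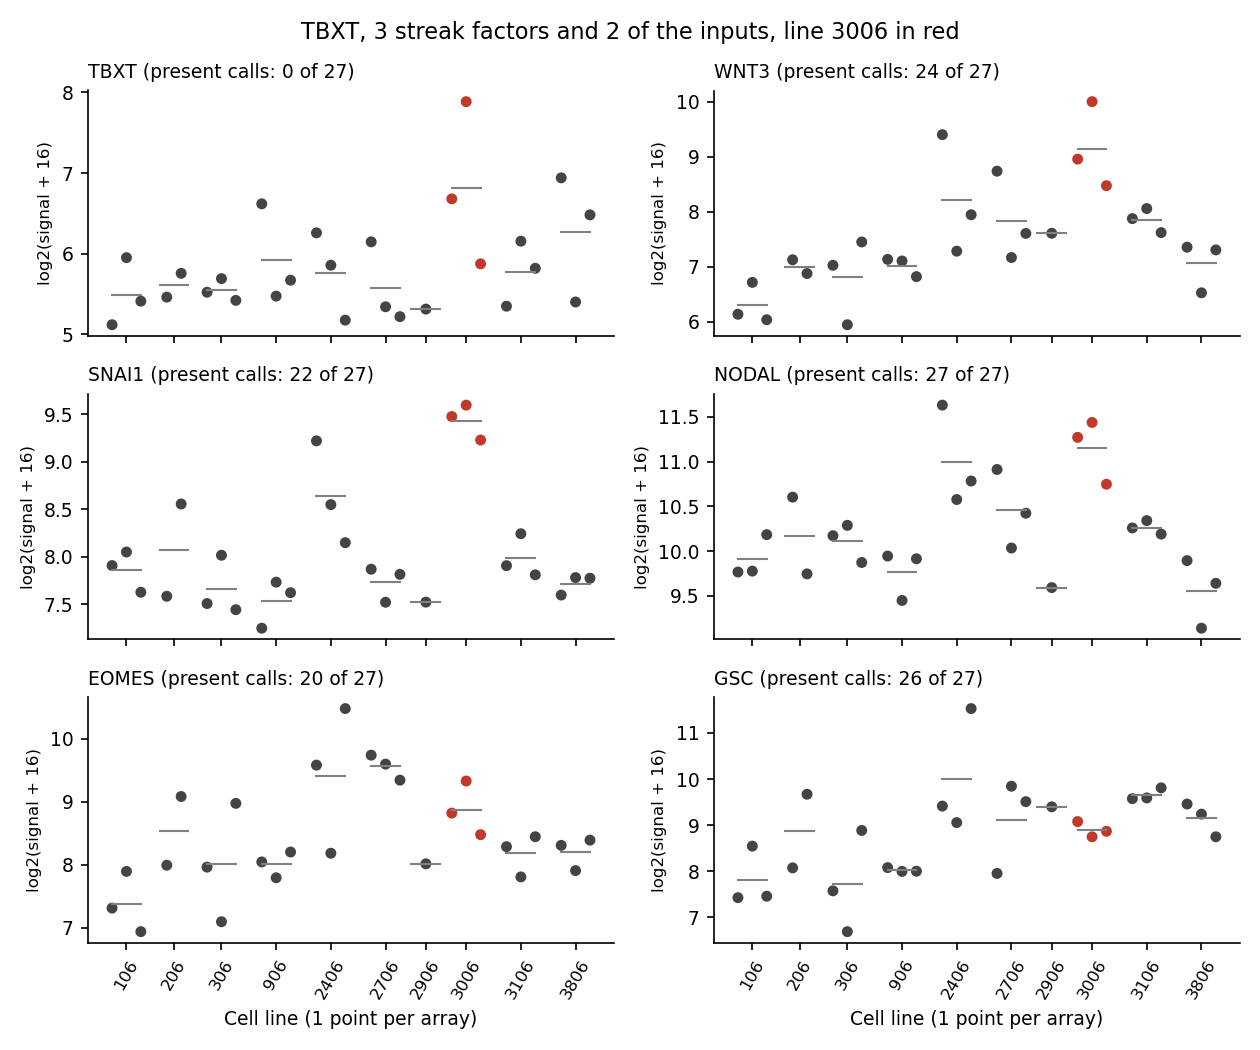
Level of TBXT, WNT3, SNAI1, NODAL, EOMES and GSC as log2(signal + 16) on each array by line, with grey lines at the line means and line 3006 in red; the vertical axes differ. WNT3 is highest on 3006b and EOMES and GSC on 2406e, while TBXT was called absent on all 27 arrays.

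Across 23 measured primitive streak, mesoderm and notochord markers, 1 was present on all arrays, 13 on some and 9 on none. TWIST1, a factor of mesenchyme, was the one on all 27 (9.68 ± 0.84). GSC was present on 26 arrays (8.86 ± 0.78) and CER1, a secreted nodal inhibitor, on 14 (8.27 ± 0.66). MESP2, FOXF1, MEOX1, KDR, CDX1, CDX2, LHX1, FOXC2 and NOTO were on 0, among them the notochord factor NOTO and the vascular receptor KDR. Among 15 tested genes, 4 differed among lines, against 17.4% of all genes. They were EOMES, SNAI1, TWIST1 and MESP2 (limma, adjusted p from 0.00067 to 0.029), of which MESP2 was present on 0 arrays. SNAI1 was not called without line 3006 (0.12), and TWIST1 (0.19) and MESP2 (0.068) were not called without the arrays of high GAPDH ratio. Leaving out the 4 arrays of highest median gave 7 called of the 15, where 20.2% of all genes were called.

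NEUROG2 lay far below the array median on every array. Line 106 gave 21.3, 23.1 and 13.2 on a, c and d, line 206 gave 12.6 and 21.5 on a and c, and line 306 gave 8.7, 11.4 and 28.3 on a, b and c. Line 906 gave 4.2, 33.1 and 50.5 on a, c and d, line 2406 gave 33.8, 14.8 and 22.8 on a, d and e, and line 2706 gave 22.0, 24.1 and 15.7 on a, b and c. Line 906 thus held both the lowest and the highest NEUROG2 signal of the series. Line 2906 gave 16.1, line 3006 gave 15.2, 20.8 and 8.1 on a, b and c, line 3106 gave 4.8, 25.5 and 12.3, and line 3806 gave 5.5, 11.8 and 11.8. No line stood apart from the others.

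The percentile of NEUROG2 among all probe sets had a median of 13.6 and ran from 3.01 to 30.0. Of the probe sets within 10% of its signal, a median of 0.297% and at most 10.1% were called present, the latter on 906d. Its signal was at most 0.429 times the array median.

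By line, NEUROG2 averaged 5.04 ± 0.20 (log2 signal, SD over 10 line means). Line 906 was highest at 5.34 ± 0.89, then 2406 at 5.29 ± 0.35, 2706 at 5.19 ± 0.18, 106 at 5.13 ± 0.23 and 206 at 5.03 ± 0.28 (n = 2, the others n = 3). Lower were 2906 at 5.0 (n = 1), 306 at 4.96 ± 0.45, 3006 at 4.92 ± 0.31, 3106 at 4.86 ± 0.50 and 3806 at 4.67 ± 0.21. No step between neighbours exceeded the larger SD of the pair, and the estimated share of variance between lines was 0%.

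NEUROG2 did not enter the test either, having exceeded the array median on 0 arrays. Without the filter it was not called among lines (limma, adjusted p = 0.859). The quadruplet lines were at 4.99 ± 0.14 and the triplet lines at 5.04 ± 0.08, a difference of -0.05 ± 0.16 (SE, adjusted p = 0.949). The male lines were at 5.09 ± 0.19 and the female lines at 4.98 ± 0.22, a difference of 0.11 ± 0.15 (adjusted p = 0.921). The genes next to NEUROG2 in the RefSeq table, LOC701204 and ZGRF1, were present on 27 arrays each.

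Other proneural and neuronal bHLH genes were mostly undetected as well. Of 7 measured, 0 were present on all arrays, 2 on some and 5 on none. NEUROG1, NEUROD4, NEUROD6 and OLIG2, which specify or mature neurons and oligodendrocytes, were on 0 arrays like NEUROG2, and NEUROG3, the neurogenin of the endocrine pancreas, was on 6. BHLHE22, a factor of cortical projection neurons, was on 6 and was the 1 gene of the list that was tested. It differed among lines (adjusted p = 0.0062), from 4.94 in line 3006 to 8.02 in line 2906, but not without the 6 arrays of high GAPDH ratio (0.071), and its second probe set was present on 0 arrays.

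The E proteins, partners of NEUROG2, were detected, and its opponents were in part. The E proteins TCF3 (11.21 ± 0.19) and TCF12 (11.56 ± 0.30) were present on 27 arrays and TCF4 (9.10 ± 0.28) on 25, and 0 of these 3 were called among lines by limma, TCF3 alone having an unadjusted p under 0.05. A dimmer probe set of TCF3, also on 27 arrays (10.41 ± 0.47), was called (adjusted p = 0.00209), against 0.076 for the brightest. Of 10 HES, HEY and ID repressors, 2 were present on all arrays, 5 on some and 3 on none. ID1 (11.18 ± 0.35) and ID4 (9.97 ± 0.76) were on 27 and ID3 (10.38 ± 0.34) on 26, while the Notch targets HES4 and HES5 were on 0. HEYL, a further Notch target, was on 0 by its brightest probe set but on 24 by the other, which differed among lines (adjusted p = 0.00124), so that HEYL is uncertain. HES1, the Notch effector that represses neurogenins, was on 12. Among 9 tested repressors, HEY1 (adjusted p = 0.020) and HEY2 (0.043) differed among lines, which is 2 against 17.4% of all genes. Neither was called without the arrays of high GAPDH ratio (0.13 and 0.22), and HEY2 also not without line 3006 (0.069). Without the arrays of highest median the count was 4, where 20.2% of all genes were called.

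Among 22 neural ectoderm and neuronal markers, 4 were present on all arrays, 12 on some and 6 on none. SOX3, a factor of both epiblast and neural plate (9.90 ± 0.41), NCAM1, a neural adhesion molecule (10.94 ± 0.19, with 9 further probe sets present on 0 to 27), MSX1 (8.35 ± 0.17) and GFAP were on 27, GFAP being the astrocyte filament whose 2 probe sets stood at 10.36 and 8.13. LHX5, SIX6, EMX2, PAX2, PAX7 and ELAVL3 were on 0. PAX6, a factor of neural progenitors that acts upstream of NEUROG2 in mouse, was on 2 arrays by each of its 2 probe sets. Its brighter one gave 257.6 on 2906d and 247 on 906c, where NEUROG2 gave 16.1 and 33.1 and ZIC2 21043 and 16579.

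TUBB3, a neuronal tubulin, HESX1, a forebrain and pituitary factor, and GFAP differed among lines (adjusted p of 0.0090, 0.045 and 0.039). TUBB3 ran from 8.38 in line 2906 to 10.45 in line 3006, HESX1 from 8.84 in line 106 to 10.42 in line 2406, and GFAP from 9.84 in line 3006 to 10.66 in line 306. These are 3 of 16 tested, against 17.4% of all genes. Without line 3006 none of them was called (0.055, 0.060 and 0.26), where 9.98% of all genes were. HESX1 was also lost without line 106 (0.072), without the arrays of highest median (0.089) and when those of high GAPDH ratio were left out (0.089), and GFAP without the last (0.18). The other probe set of GFAP was not called (0.604). Counted by any probe set of a gene, 6 of the 16 differed, against 3 by the brightest.

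Of the 78 tested genes of all lists given so far, 0 were called by limma between families and 0 between sexes, where 0.0708% and 0.00885% of all tested genes were. At an unadjusted p under 0.05 the counts were 5 and 7, where 3139 and 1982 of all 32856 tested probe sets passed. These counts are therefore not read as a result about the list genes.

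Markers of fibroblasts and other cells were read beside these values. The feeders were mouse cells and the array was made for rhesus. Whether fibroblast signals came from feeders or from rhesus cells was not tested. Of 11 fibroblast markers 6 were present on all arrays, and the mean level of the list ran from 8.98 in line 2906 to 10.25 in line 106, with 9.94 in line 3006. COL1A1, COL1A2 and TAGLN were the 3 of 9 tested that differed among lines, against 17.4% of all genes. COL1A1 was lost without line 2906 (0.22), line 3006 (0.058) or the arrays of high GAPDH ratio (0.66), and so was TAGLN (0.052, 0.093 and 0.64), which left COL1A2 as the 1 called gene without either line. Without line 106 the count was 6, and without the arrays of highest median it was 5, where 21.4% and 20.2% of all genes were called. COL1A2 was lower in the quadruplet (-2.12 ± 0.27, limma adjusted p = 0.045), where 0.0708% of all tested genes were called between families. This family call was not followed through the other settings. LOX was present on 0 arrays. TAGLN, an actin-binding protein, was highest in line 3006 at 14.08, the line also highest for WNT3 and SNAI1. Of 7 tested endoderm markers, 4 differed among lines, against the same 17.4%, and SOX17, GATA6 and FOXA2 were highest in line 2406, where EOMES and GSC had their highest single arrays. These 3 were lost without line 106 (0.058, 0.093 and 0.083), which left 1 called, and GATA6 (0.13) and FOXA2 (0.095) were lost without the arrays of high GAPDH ratio, which left 2. FOXA2 was also not called without line 3006 (0.065), and the second probe set of SOX17 was not called (0.068). Of 9 trophoblast markers, CDX2 and KRT7 were present on 0 arrays, and GATA2 was on 0 by its brightest probe set but on 11 by another. Here 2 of 6 tested differed among lines, GATA3 and KRT8, against the same 17.4%. Neither was called without line 2906 (0.18 and 0.25) or the arrays of high GAPDH ratio (0.46 and 0.28). The part of such cells in the TBXT and ZIC2 values was not tested.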

How the data were processed

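Per the labels' protocols, 300 ng of total RNA from each of 27 samples was turned into biotin-labelled cRNA for Affymetrix rhesus arrays. The authors deposited 1 intensity per probe set and array. The submitters' processing notes name GCOS, and neither version nor settings were given in the sources used here. The mean intensity without the outer 2% at each end was 500.0 on every array, so the deposited values had been scaled. The detection calls are the authors' deposited calls. In all, 1 blank cell was filled from the second deposited table, and 0 other shared cells differed.

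Of 52865 probe sets, 158 controls were set aside. Of the other 52707, 24956 had 1 gene symbol, 361 several and 27390 none, and 24616 matched the RefSeq table of the telomere-to-telomere assembly MMU8v2.0. No coordinates are given, since the array predates it. A gene stood by its brightest probe set.

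Values were taken as log2(signal + 16), which understates changes of dim genes. Probe sets above the array median on at least 3 arrays (32856, with 11299 genes) were tested with limma 3.58.1 in R 4.3.3, by an F test over arrays for lines and on line means for family and sex. P-values were adjusted by Benjamini-Hochberg over all tested probe sets, with a threshold of 0.05. The steps were tested on simulated data. Precision is limited by the number of arrays.

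The members, lists and tests were chosen with earlier results of these data known. Within each list, genes were named if called among lines, if among the 4 of highest mean level present on all arrays or the 4 of widest range, or if present on 0 arrays; further list genes (such as AXIN2, HES1 and PAX6) were picked with their values in view. The 6 genes closest to ZIC2 were those of highest Pearson r over line means. Alternatives were other pseudocounts, filters and normalizations, fits without moderation, with the letter of the array or the line as a block or with a covariate, and the omission of lines or arrays. The array letters were not used to pair the samples in the main fit. Of 77 same-letter pairs of different lines, 30 had a correlation of deviations above 0.1 (mean r 0.071). The mean r was -0.024 over 223 pairs of unlike letters. Whether a letter marks a shared batch is not stated in the labels.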

Additional observations from a re-analysis of the deposited data

How the results depend on the processing

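The calls of ZIC2, TBXT and NEUROG2 were the same with marginal calls counted as present and, on the arrays kept, without the 6 arrays of high GAPDH ratio (ZIC2 present on 21 of 21). ZIC2 was not called among lines, families or sexes in any alternative, its adjusted p among lines running from 0.597 to 0.973 and its sex difference from -0.17 to -0.04. Its family difference of -0.0035 turned positive with median centring (0.054), when the 6 arrays of high GAPDH ratio were left out (0.013), when the 4 of highest median were (0.23) and with the line as a random block and the array letter as a replicate block (0.0047), and leaving out single lines moved it between -0.13 and 0.088. The range of line means was 1.21 for NEUROG2 with a pseudocount of 1, and 2.62 for TBXT without the arrays of high GAPDH ratio, which leaves 3006b alone in its line. Leaving out single arrays or line 2906 gave ranges of 0.38 to 0.72 for ZIC2 (the highest without 206a), 0.97 to 1.97 for TBXT and 0.54 to 1.16 for NEUROG2, the extremes of TBXT falling without 3006b and 3006c, and that of NEUROG2 without 906a.

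The number of probe sets that differed among lines was 5460, against 3334 with median centring, 2615 without the arrays of high GAPDH ratio and 3449 to 7317 without single lines or arrays, the lowest without line 3006. With the array letter as a replicate block it was 3940, and ZIC2 stayed uncalled (adjusted p = 0.913); 12 of 26 arrays lay nearest to an array of their own letter. The number that differed between families was 25, against 14 with no filter, 10 with a filter at the 75th percentile, 3 without moderation, 9 with sex as a covariate, 350 with the line as a random block, 342 with the replicate block added, and 4 to 55 without single lines. The number that differed between sexes was 19, against 45 with the line as a random block and 34 with the replicate block added. Over list genes, the mean of a gene's probe sets in place of the brightest left 1 T-box gene differing among lines instead of 2. It also left 2 neural and 3 endoderm markers instead of 3 and 4, and gave 4 fibroblast markers instead of 3. Counting a gene as called by any of its probe sets gave 6 neural markers instead of 3 and 6 endoderm markers instead of 4. The counts were 3 repressors instead of 2, 3 trophoblast markers and 2 primed genes instead of 2 and 1, and 1 E protein instead of 0. For the WNT, FGF and nodal genes the count was 8 instead of 7, and for fibroblast markers 4 instead of 3. The list counts by any probe set, without lines 106, 2906 or 3006 or without doubted arrays, and the ranges without single arrays, were added after seeing the data. The cause of these shifts was not tested.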

Other observations

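Some endoderm and trophoblast markers were present on every array. Of 7 endoderm markers, 3 were present on all arrays and 4 on some. Of 9 trophoblast markers, 3 were present on all arrays, 3 on some and 3 on none. HHEX, an endoderm and blood factor, was present on 27 arrays at 13.68 ± 0.14 (log2 signal, SD over 10 lines) and was not called among lines by its brightest probe set (limma, adjusted p = 0.474), although 2 dimmer ones were (0.00446 and 0.026). AFP, the fetoprotein of visceral endoderm and liver, was present on 27 arrays at 9.70 ± 0.32 and differed among lines (adjusted p = 0.010), though its second probe set, on 26 arrays, did not pass (0.419). GATA6, the factor of primitive endoderm, was also on 27 arrays and ran from 7.78 in line 106 to 10.87 in line 2406 (adjusted p = 0.031), a call lost without line 106 (0.093) and when the arrays of high GAPDH ratio were left out (0.13). TFAP2C (10.54 ± 0.28) and TEAD4 (11.46 ± 0.36), factors of trophoblast that pluripotent cells also express, were on 27 arrays and were not called among lines.

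KLF4, a naive pluripotency factor, ran from 8.17 in line 3806 to 10.65 in line 106 (limma, adjusted p = 0.016). ZFP42, or REX1, ran from 8.25 in line 2906 to 9.89 in line 306 (adjusted p = 0.0097). Thus 2 of 4 tested naive genes differed among lines, against 17.4% of all genes. KLF4 was not called without the arrays of high GAPDH ratio (0.059) or of highest median (0.051), and ZFP42 not without line 3006 (0.053). SFRP2, a secreted WNT modulator, was the 1 of 12 primed genes that differed among lines by the brightest probe set, against 17.4% of all genes. It ran from 9.29 in line 3106 to 11.39 in line 2406 (adjusted p = 0.0067), but was not called without the arrays of high GAPDH ratio (0.068).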
